A study of Mus musculus with 6 samples.

Results

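The genes described here are the inhibitors of proteases measured in mouse lung: serpins, cystatins, inhibitors with a WAP domain, Kunitz inhibitors, inter-alpha-trypsin inhibitor heavy chains and alpha-2-macroglobulin. They were chosen by gene symbol (Serpin, Cst, Wfdc, Spint and Itih with what follows, and Slpi, Stfa1, Stfa2 and A2m). The rule found 78 genes, carried by 97 probes, among 16358 genes that could be named on the array. A further 34 RefSeq symbols fit the rule but had no matched probe and were not analysed here, among them Serpina1a, Serpina3g, Stfa1, Stfa2 and Wfdc17.

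Lung total RNA came from C57BL/6 mice of 3 genotypes. The tg/tg mice carried the hCD2-T-bet transgene on both alleles, the tg/wt mice carried it on 1 allele, and the WT mice did not carry it. The human CD2 promoter directs the transgene to T cells, and T-bet (gene Tbx21) is the factor that sets the type 1 helper fate of T cells. Each genotype had 2 arrays, 6 in all, and nothing in the labels says whether the arrays of a genotype came from separate mice, so the p-values may measure technical spread only. The ages and sexes of the mice are not given in the sources used here.

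The array is a single-colour Agilent design, and a level below is the log2 intensity of a gene's probe minus the log2 of that array's 75th percentile. A level of 0 is therefore the 75th percentile of the array, and levels of different probes are not set against each other. Arrays of the same genotype correlated at 0.996 to 0.997 over the tested genes, the WT and tg/wt arrays at 0.990 to 0.991, and arrays of tg/tg lungs correlated with the rest at 0.921 to 0.933. Tbx21 stood at 3.13 and 3.15 in tg/tg lungs, 1.21 and 1.25 in tg/wt lungs and -0.81 and -0.81 in WT lungs, in the order of the labels. The tg/tg and WT arrays shared slide 1, while both tg/wt arrays lay on slide 2. The comparison of tg/tg with WT thus lay within 1 slide, whereas in both comparisons with tg/wt the genotype and the slide cannot be told apart.

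Protease inhibitors hold proteases in check in the airspaces, in blood plasma and inside cells. A serpin offers its reactive loop as bait and traps the protease that cuts it, a cystatin plugs the active site of papain-like cysteine cathepsins, and alpha-2-macroglobulin encloses proteases of many kinds. In lung the balance between neutrophil elastase and its inhibitors, alpha-1-antitrypsin and Slpi among them, is the best known example.

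The inhibitors differed widely between tg/tg and WT lungs, in both directions. Of the 78 genes 51 were bright enough to be tested, of which 41 were well above background on all 6 arrays. In tg/tg lungs 27 of the 51 (52.9%) were higher than in WT lungs, beside 33.5% of all 12968 tested genes, and 17 (33.3%) were lower, beside 41.2% of all tested genes (limma, Benjamini-Hochberg adjusted p below 0.05). In either direction 44 of the 51 inhibitors were called, 86.3%, beside 74.8% of all tested genes. The median log2 difference was 0.205 over the 51 inhibitors and -0.0597 over all tested genes. Because 3 of the 51 (A2m and Serpinb12 in tg/tg lungs, Cst13 in tg/wt lungs) entered through a single genotype in which they were bright, these counts describe the tested genes and not all 78. In whole lung, fewer cells of a type and less RNA per cell cannot be told apart.

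**Figure D1:**
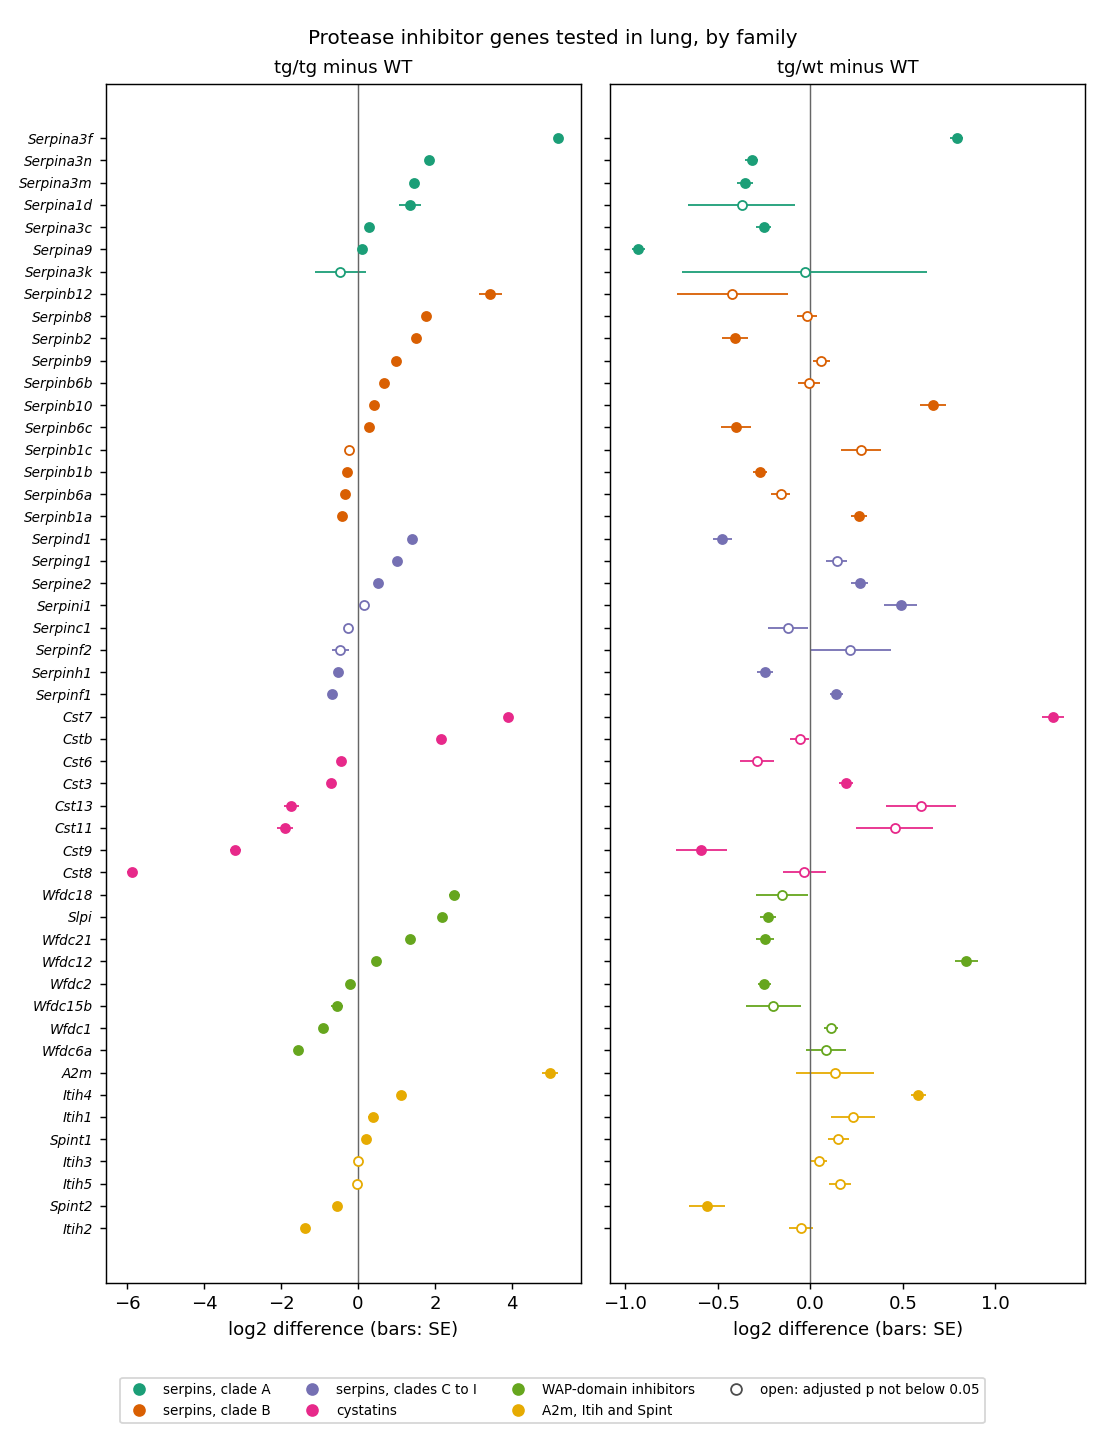
Log2 differences of the tested inhibitors but 1 (horizontal axes, with SE bars), tg/tg minus WT in the left panel and tg/wt minus WT in the right one, on axes of unequal range. Genes run down the page by family, and open points did not pass the test. Serpina3f at 5.19 and Cst8 at -5.88 mark the extremes for tg/tg lungs, while the tg/wt differences stay between -0.93 and 1.31.

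Among the clade A serpins, the secreted relatives of alpha-1-antitrypsin and alpha-1-antichymotrypsin, 6 of the 7 tested members rose in tg/tg lungs and none fell. Over all tested genes 33.5% were higher and 41.2% lower. Serpina3f, a mouse relative of human alpha-1-antichymotrypsin, stood at 2.91 and 2.88 in tg/tg lungs, -1.53 and -1.49 in tg/wt lungs and -2.31 and -2.29 in WT lungs. It was 36.6-fold above WT in tg/tg lungs (log2 difference 5.19, SE 0.0345, limma adjusted p = 6.05e-07), and its second probe gave a log2 difference of 5.01. Serpina3n, which inhibits granzyme B and cathepsin G, stood at 2.41 and 2.41 in tg/tg lungs, 0.21 and 0.26 in tg/wt lungs and 0.55 and 0.56 in WT lungs. All tg/tg arrays lay above all others for both genes, and Serpina3n was 3.62-fold above WT in tg/tg lungs (log2 difference 1.85, SE 0.0341, limma adjusted p = 2.41e-06).

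Serpina3m, another member of the same cluster, reached 1.90 and 1.98 in tg/tg lungs, with 0.15 and 0.14 in tg/wt lungs and 0.49 and 0.52 in WT lungs, and was 2.72-fold above WT in tg/tg lungs (limma adjusted p = 8.2e-06). Serpina3c rose by a log2 difference of 0.29 (limma adjusted p = 0.00203). Serpina3k showed no call (log2 difference -0.46, limma adjusted p = 0.557), and its tg/wt arrays alone spread from -6.24 to -4.23. The Serpina3 genes are close copies of one another, and whether a probe reads more than 1 of them was not tested.

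Serpina1d, a mouse form of alpha-1-antitrypsin, the main plasma inhibitor of neutrophil elastase, had -3.94 and -3.81 in tg/tg lungs, -5.88 and -5.31 in tg/wt lungs and -4.89 and -5.56 in WT lungs. Its log2 difference between tg/tg and WT lungs was 1.35 (SE 0.29, limma adjusted p = 0.0101), and without tg/tg replicate 2 the adjusted p was 0.0519. With normexp background correction, which adds an offset of 50 and so compresses low values, the difference was 0.51 (adjusted p = 0.0199). It was well above background on both tg/tg arrays and on 1 of the WT arrays. Serpina9, known from germinal centre B cells, had a log2 difference of 0.11 (limma adjusted p = 0.0383), a call that ended in 11 of 17 distinct alternative fits. The clade A members on chromosome 12, 15 in number, comprise 6 that rose, 1 without a call and 8 too dim to test.

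Promoter sequences are shown for Serpina3f, Serpina3n, Slpi and Serpinb9, which rose in tg/tg lungs and each hold a searched motif. They are the 250 bases before the RefSeq start site in assembly GRCm38.p6, written 5′ to 3′ on the gene's strand, with motif matches in capitals. Serpina3f lies at chr12:104214294-104214543 on the plus strand, and its capitals mark a match to the C/EBP letters, then a GAS match, then a second C/EBP match. Serpina3n lies at chr12:104406458-104406707 on the plus strand, with an NF-kB match in capitals. Slpi lies at chr2:164356508-164356757 on the minus strand, with a C/EBP match. Serpinb9 lies at chr13:33004291-33004540 on the plus strand, with an ISRE core match, the letters of interferon-stimulated response elements.
Serpina3f: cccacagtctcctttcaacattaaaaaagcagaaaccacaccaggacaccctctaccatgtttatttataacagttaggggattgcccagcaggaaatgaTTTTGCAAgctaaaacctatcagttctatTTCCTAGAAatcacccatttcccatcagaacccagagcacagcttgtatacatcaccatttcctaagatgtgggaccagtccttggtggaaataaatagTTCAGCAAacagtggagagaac
Serpina3n: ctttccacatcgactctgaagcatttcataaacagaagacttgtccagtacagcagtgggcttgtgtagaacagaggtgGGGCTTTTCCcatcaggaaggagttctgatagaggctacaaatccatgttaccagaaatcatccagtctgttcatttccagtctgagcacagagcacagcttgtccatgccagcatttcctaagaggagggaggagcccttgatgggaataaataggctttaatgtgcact
Slpi: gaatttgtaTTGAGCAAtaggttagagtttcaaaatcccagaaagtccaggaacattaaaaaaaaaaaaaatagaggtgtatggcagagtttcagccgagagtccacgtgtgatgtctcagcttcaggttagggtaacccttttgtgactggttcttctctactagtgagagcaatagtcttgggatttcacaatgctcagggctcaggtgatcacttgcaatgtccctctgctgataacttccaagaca
Serpinb9: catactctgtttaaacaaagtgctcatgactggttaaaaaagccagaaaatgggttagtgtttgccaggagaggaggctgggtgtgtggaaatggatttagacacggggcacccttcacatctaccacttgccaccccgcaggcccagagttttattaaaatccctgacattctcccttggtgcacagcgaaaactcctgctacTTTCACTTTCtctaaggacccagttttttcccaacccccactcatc

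The motifs were searched on both strands in the same window of 32851 RefSeq promoters of 27025 genes, and a gene counted where any of its promoters held the letters. GAS (TTCNNNGAA) was found for 8.13% of all genes, the ISRE core (GAAA, any 2 bases, GAAA) for 3.46%, the T-box (TCACACCT) for 1.3%, NF-kB (GGG, any 2 bases, TTTCC) for 1.65% and C/EBP (TTGCNNAA) for 10.8%. Promoters were at hand for 39 of the 51 tested inhibitors, 20 of them higher and 13 lower in tg/tg than in WT lungs. Of the 20 that rose, 3 held GAS (Itih4, Serpina3f and Serpinb2), 1 held the ISRE core, 1 held NF-kB, 6 held C/EBP and 0 held the T-box letters. Of the 13 that fell, 1 held GAS and the ISRE core (Serpinb6a) and 2 held C/EBP (Itih2 and Wfdc6a). A match describes letters in the window and not a bound site.

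Of the clade B serpins, which stay largely inside cells, 11 of 24 could be tested. In tg/tg lungs 7 rose and 3 fell, beside 33.5% higher and 41.2% lower of all tested genes. Serpinb12, an inhibitor of trypsin-like proteases, was well above background only in tg/tg lungs, at -3.94 and -4.05, beside -8.07 and -7.63 in tg/wt lungs and -7.03 and -7.83 in WT lungs. It was at least 3.15-fold above WT in tg/tg lungs (limma adjusted p = 3.42e-04), and 1.90-fold with normexp. Serpinb12 entered the test through tg/tg lungs alone, so this p-value adds no support of its own. Serpinb2, plasminogen activator inhibitor type 2, had -3.16 and -3.27 in tg/tg lungs, -5.05 and -5.21 in tg/wt lungs and -4.71 and -4.75 in WT lungs, a 2.85-fold rise over WT (limma adjusted p = 3.67e-05), or 1.83-fold with normexp. An "at least" fold compares the bright genotype with the lowest signal counted as well above background, since the dim genotype has only an upper bound.

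Serpinb9 protects cells from granzyme B and stood at 0.99 and 0.93 in tg/tg lungs, -0.01 and 0.06 in tg/wt lungs and -0.01 and -0.06 in WT lungs. Its rise was 1.99-fold (limma adjusted p = 3.37e-05), a log2 difference of 0.99 with SE 0.0452, and its other probe gave 1.72. Serpinb8, an inhibitor of furin in human cells, had -1.87 and -1.82 in tg/tg lungs, -3.57 and -3.67 in tg/wt lungs and -3.57 and -3.63 in WT lungs, 3.38-fold above WT (limma adjusted p = 8.92e-06). Its log2 difference was 1.76 on this brighter probe and 0.72 on the other. Both probes of each gene shared a direction and differed in size.

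Serpinb6b rose by 0.68 and Serpinb10 by 0.41 on the log2 scale, while Serpinb6c rose by 0.28, a call that ended without tg/tg replicate 2 (adjusted p = 0.109) or WT replicate 2 (adjusted p = 0.102). Serpinb1a, a potent inhibitor of neutrophil elastase, moved the other way, with 1.46 and 1.40 in tg/tg lungs, 2.08 and 2.11 in tg/wt lungs and 1.81 and 1.85 in WT lungs. It fell by 0.40 on the log2 scale in tg/tg against WT lungs (SE 0.0409, limma adjusted p = 6.12e-04). Serpinb6a, the inhibitor of cathepsin G, fell by 0.33 (limma adjusted p = 0.00328) and Serpinb1b fell by 0.28 (limma adjusted p = 0.00197), a call that ended with normexp (-0.16, adjusted p = 0.125).

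The proteases met by these inhibitors were measured on the same arrays. Of the neutrophil serine proteases Ctsg rose, with -1.59 and -1.62 in tg/tg lungs, -4.90 and -4.72 in tg/wt lungs and -4.96 and -4.97 in WT lungs, 10.3-fold above WT (limma adjusted p = 2.73e-06). Prtn3 gave a log2 difference of -0.077 with no call (adjusted p = 0.565), and Elane was not among the tested genes. Of 6 granzyme and perforin genes 5 rose and 1, Gzmm, fell, beside 33.5% higher and 41.2% lower of all tested genes. Gzmc, 1 of the 5, was well above background only in tg/tg lungs and entered the test through them alone, so its rise adds no support of its own. Gzmb had 1.73 and 1.77 in tg/tg lungs, -0.91 and -0.93 in tg/wt lungs and -2.10 and -1.92 in WT lungs, a 13.6-fold rise over WT (limma adjusted p = 2.29e-06), Gzmk was at least 78.2-fold higher, and Prf1 was 4.85-fold higher.

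Among inhibitors of clotting, fibrinolysis and complement, Serpind1, Serpine2 and Serping1 rose in tg/tg lungs, whereas Serpinc1 and Serpinf2 did not pass the test. Serpind1, heparin cofactor II, which inhibits thrombin, had -0.36 and -0.33 in tg/tg lungs, -2.16 and -2.28 in tg/wt lungs and -1.74 and -1.75 in WT lungs, 2.64-fold above WT (limma adjusted p = 1.74e-05). Serpine2, protease nexin 1, rose by 0.52 (limma adjusted p = 3.65e-04). Serping1, the inhibitor of the complement protease C1, had 5.28 and 5.21 in tg/tg lungs, 4.35 and 4.39 in tg/wt lungs and 4.17 and 4.29 in WT lungs, 2.02-fold above WT (limma adjusted p = 6.29e-05).

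Antithrombin, Serpinc1, had a log2 difference of -0.27 between tg/tg and WT lungs with no call (limma adjusted p = 0.0732), and Serpinf2, alpha-2-antiplasmin, one of -0.46 with no call (limma adjusted p = 0.114). Apart from leaving out arrays, the outcome for Serpinc1 was the same in 11 of 14 alternative settings. With normexp its sign turned without a call, and in the rest it was called lower. Serpini1, neuroserpin, an inhibitor of tissue plasminogen activator, gave 0.15 with no call (limma adjusted p = 0.176). Serpinf2 spread from -5.23 to -4.57 between the tg/tg arrays. Of the 15 genes of clotting and fibrinolysis that were listed, 10 rose and 4 fell in tg/tg lungs, beside 33.5% and 41.2% of all tested genes. F10 rose 10.5-fold, Plau, the urokinase that Serpinb2 inhibits, 6.57-fold and Procr 6.14-fold, whereas Thbd, the thrombin receptor thrombomodulin, was 4.70-fold lower.

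**Figure D2:**
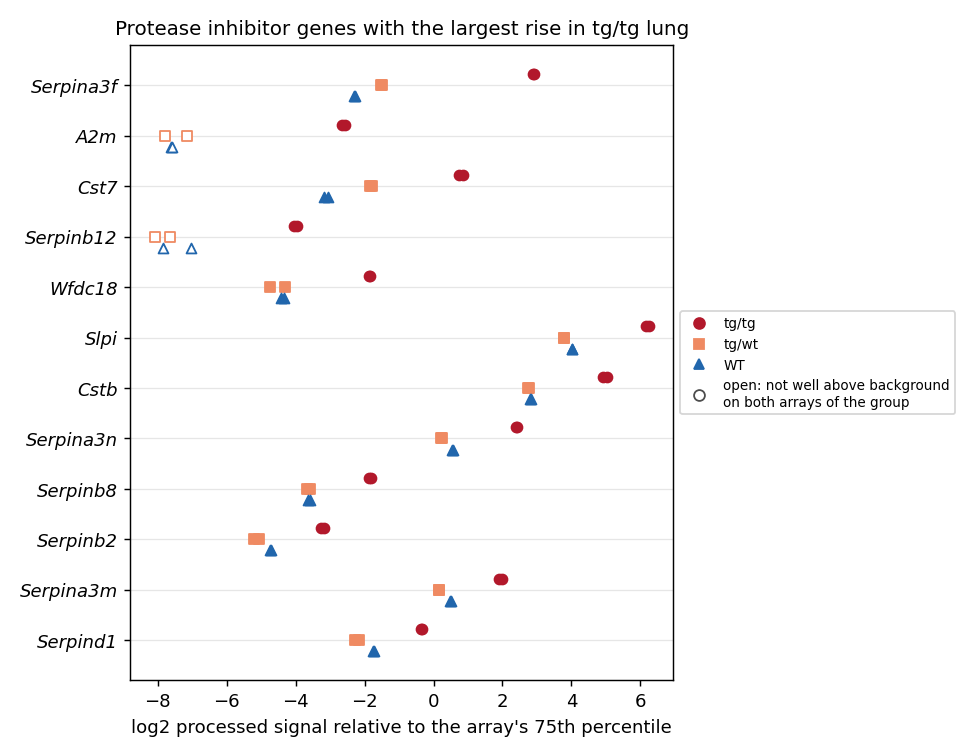
Levels of inhibitors that were higher in tg/tg lungs, each point an array, on a horizontal axis of log2 level relative to the array's 75th percentile, with tg/tg above tg/wt above WT in each gene's row. Open points mark groups not well above background on both arrays, and Serpina3f and Cst7 are highest in tg/tg and lowest in WT lungs, while Slpi and Serpina3n are lowest in tg/wt lungs.

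Of the 8 tested cystatins 2 were called higher and 6 lower in tg/tg than in WT lungs, beside 33.5% and 41.2% of all tested genes. Among the 6, the calls of Cst6, Cst11 and Cst13 ended in at least 1 alternative. Cst7, cystatin F of leukocytes, which restrains cathepsin C in cytotoxic cells, had 0.85 and 0.73 in tg/tg lungs, -1.83 and -1.78 in tg/wt lungs and -3.16 and -3.07 in WT lungs. It was 15.0-fold above WT in tg/tg lungs (log2 difference 3.91, SE 0.0594, limma adjusted p = 1.51e-06). Cstb, stefin B, which binds cathepsins that leak into the cytosol, had 5.03 and 4.90 in tg/tg lungs, 2.75 and 2.75 in tg/wt lungs and 2.79 and 2.83 in WT lungs, 4.46-fold above WT (limma adjusted p = 4.96e-06). Both genes had every tg/tg array above every other array.

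Cst3, the secreted cystatin C, went the other way, with 5.45 and 5.43 in tg/tg lungs, 6.31 and 6.34 in tg/wt lungs and 6.16 and 6.11 in WT lungs. It was 1.62-fold below WT in tg/tg lungs (log2 difference -0.69, SE 0.0377, limma adjusted p = 6.24e-05). Cst6, cystatin E/M, fell by 0.44 (limma adjusted p = 0.00864), a call that ended with normexp (-0.11, adjusted p = 0.264).

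Cst8, a cystatin-related gene best known from epididymis and testis, showed the largest fall of the tested inhibitors, with -5.57 and -5.22 in tg/tg lungs, 0.44 and 0.45 in tg/wt lungs and 0.48 and 0.48 in WT lungs. It was 58.7-fold below WT in tg/tg lungs (log2 difference -5.88, SE 0.117, limma adjusted p = 2.95e-06), or 17.0-fold with normexp, and only 1 of the tg/tg arrays was well above background. Cst9, at -7.68 and -7.57 in tg/tg lungs, -5.23 and -4.84 in tg/wt lungs and -4.50 and -4.38 in WT lungs, was not well above background in tg/tg lungs and at least 1.97-fold lower there than in WT lungs (limma adjusted p = 3.01e-05), or 1.66-fold with normexp. Cst11 and Cst13 were called lower by the model, but no fold is given: Cst11 was too close to background for a bound, and Cst13 was below background in both genotypes. With values held at a floor of the lowest signal well above background, both calls ended and the sign turned, with differences of 0.10 for Cst11 (adjusted p = 0.329) and 0.21 for Cst13 (adjusted p = 0.273). With normexp Cst11 was at -0.31 (adjusted p = 0.00993), and the call of Cst13 ended (-0.20, adjusted p = 0.264). Cst3, Cst7, Cst8, Cst9, Cst11 and Cst13 all lie on chromosome 2.

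The cysteine proteases that cystatins bind were measured too. Of 11 genes of papain-family cathepsins and legumain, 9 were higher and 2 lower in tg/tg than in WT lungs, beside 33.5% and 41.2% of all tested genes, and the list as a whole was not tested. Ctss had 8.25 and 8.12 in tg/tg lungs, 5.27 and 5.31 in tg/wt lungs and 4.75 and 4.75 in WT lungs, 10.8-fold above WT (limma adjusted p = 1.48e-06). Ctsw was 8.96-fold, Ctsk 6.06-fold and Ctsz 3.80-fold higher. Ctsf fell by 1.22 on the log2 scale.

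**Figure D3:**
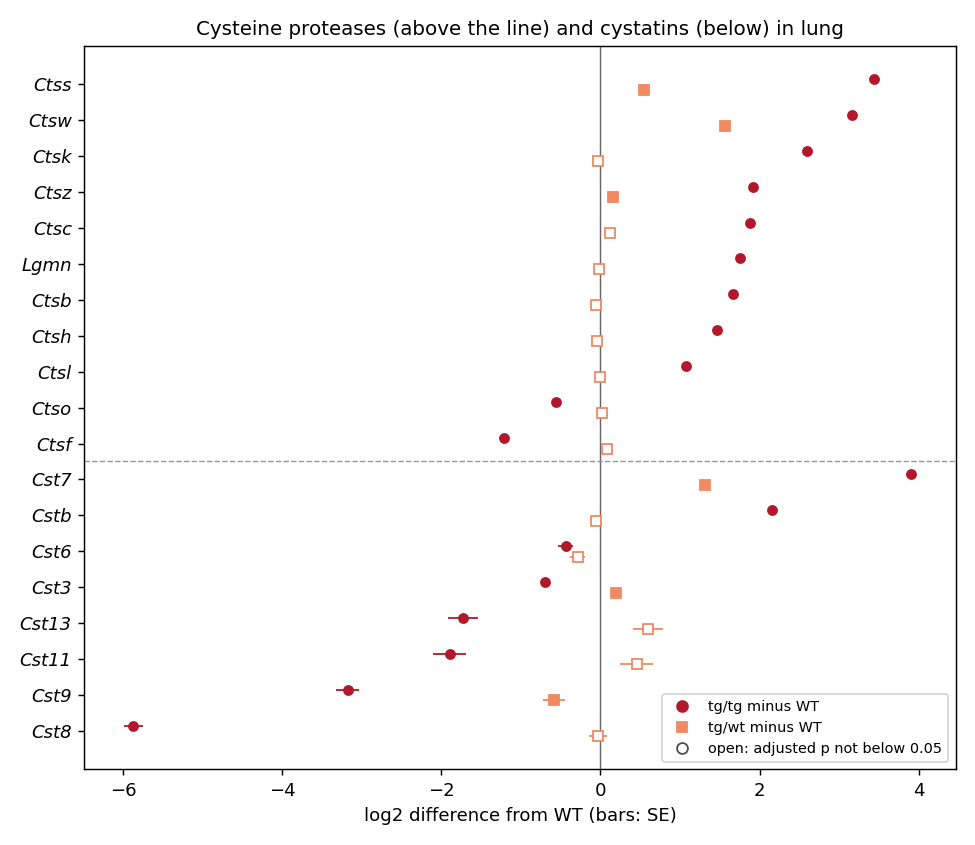
Log2 differences of cystatins and of papain-family cathepsins with legumain, tg/tg minus WT (circles) and tg/wt minus WT (squares), on a horizontal axis with SE bars, where open points did not pass the test. Ctss at 3.44, Cst7 at 3.91 and Cstb at 2.16 were higher in tg/tg lungs, and Cst3 at -0.69 and Ctsf at -1.22 were lower.

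Of the 8 tested WAP-domain inhibitors, 4 rose and 4 fell in tg/tg lungs, beside 33.5% higher and 41.2% lower of all tested genes. Slpi, the secretory leukocyte inhibitor of neutrophil elastase and cathepsin G, had 6.24 and 6.15 in tg/tg lungs, 3.79 and 3.79 in tg/wt lungs and 4.03 and 4.0 in WT lungs. It was 4.52-fold above WT in tg/tg lungs (log2 difference 2.18, SE 0.0429, limma adjusted p = 2.89e-06). Wfdc18 had -1.88 and -1.85 in tg/tg lungs, -4.73 and -4.31 in tg/wt lungs and -4.32 and -4.41 in WT lungs, 5.67-fold above WT (limma adjusted p = 7.02e-05), or 3.13-fold with normexp. Wfdc21 rose 2.55-fold and Wfdc12 1.39-fold.

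Wfdc1, a WAP protein first described as a growth inhibitor of prostate stroma, had 0.89 and 0.95 in tg/tg lungs, 1.93 and 1.92 in tg/wt lungs and 1.82 and 1.81 in WT lungs, 1.86-fold lower than WT (limma adjusted p = 2.27e-05). Wfdc6a was at least 2.40-fold lower (limma adjusted p = 1.5e-04), or 1.37-fold with normexp. Wfdc15b was at least 1.04-fold lower (limma adjusted p = 0.0237), a call that ended in 5 alternatives. These were without tg/tg replicate 1 (adjusted p = 0.0971), without WT replicate 1 (adjusted p = 0.0868), with an intensity trend (adjusted p = 0.0925), with normexp (-0.065, adjusted p = 0.555) and with the floor (-0.052, adjusted p = 0.752). Wfdc2, an airway epithelial WAP protein, fell by 0.21 on the log2 scale, with 8.06 and 8.01 in tg/tg lungs, 7.98 and 7.99 in tg/wt lungs and 8.25 and 8.22 in WT lungs (limma adjusted p = 0.00476). In the list of airway secretory markers, 6 of 6 tested genes were lower in tg/tg lungs, beside 41.2% of all tested genes. Their summed linear level was 410 and 366 in tg/tg lungs, 655 and 787 in tg/wt lungs and 869 and 861 in WT lungs. The part of that list in the WAP results was not tested.

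A2m, which encodes alpha-2-macroglobulin, was well above background only in tg/tg lungs, at -2.56 and -2.65, beside -7.78 and -7.14 in tg/wt lungs and -7.61 and -7.58 in WT lungs. It was at least 8.25-fold above WT in tg/tg lungs (limma adjusted p = 2.68e-05), and 3.19-fold with normexp. A2m entered the test through tg/tg lungs alone, so this p-value adds no support of its own. Of the 5 inter-alpha-trypsin inhibitor heavy chains, whose classical members are linked to hyaluronan in inflamed matrix, 2 rose, 1 fell and 2 were not called. The shares of all tested genes were 33.5% higher and 41.2% lower. Itih4, an acute phase protein, had 0.37 and 0.39 in tg/tg lungs, -0.20 and -0.13 in tg/wt lungs and -0.74 and -0.75 in WT lungs, 2.19-fold above WT (limma adjusted p = 1.54e-05). Itih2 had -3.95 and -3.89 in tg/tg lungs, -2.58 and -2.61 in tg/wt lungs and -2.63 and -2.46 in WT lungs, 2.61-fold below WT (limma adjusted p = 4.1e-05). Itih1 was called higher at 0.38, but the call ended in 6 of 17 distinct alternative fits, with an adjusted p of 0.0581 without WT replicate 2, 0.137 without tg/tg replicate 2 and 0.0657 within slide 1 alone. Itih3 and Itih5 gave log2 differences of 0.0077 and -0.032 with no call.

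The Kunitz inhibitors Spint1 and Spint2 restrain membrane-anchored serine proteases such as matriptase. Spint2 fell by 0.54 on the log2 scale, with -2.74 and -2.57 in tg/tg lungs, -2.68 and -2.68 in tg/wt lungs and -2.01 and -2.23 in WT lungs (limma adjusted p = 0.00524). Spint1 rose by 0.20 (limma adjusted p = 0.0258), and the call ended when any 1 of the tg/tg or WT arrays was left out, with adjusted p between 0.0568 and 0.115, and with the replicate block (adjusted p = 0.0512). Of 11 membrane-anchored proteases and their substrates, 4 rose and 5 fell in tg/tg lungs, close to the shares of all tested genes (33.5% higher and 41.2% lower), Tmprss4 by 1.90-fold upward and Tmprss13 by 2.34-fold downward.

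Some members of the serpin fold do not act as protease inhibitors. Serpinf1, the pigment epithelium-derived factor, had 1.46 and 1.52 in tg/tg lungs, 2.31 and 2.30 in tg/wt lungs and 2.17 and 2.16 in WT lungs, 1.59-fold below WT (limma adjusted p = 6.64e-05). Serpinh1, the collagen chaperone of the endoplasmic reticulum, had 4.86 and 4.88 in tg/tg lungs, 5.18 and 5.10 in tg/wt lungs and 5.37 and 5.40 in WT lungs, 1.42-fold below WT (limma adjusted p = 2.84e-04).

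**Figure D4:**
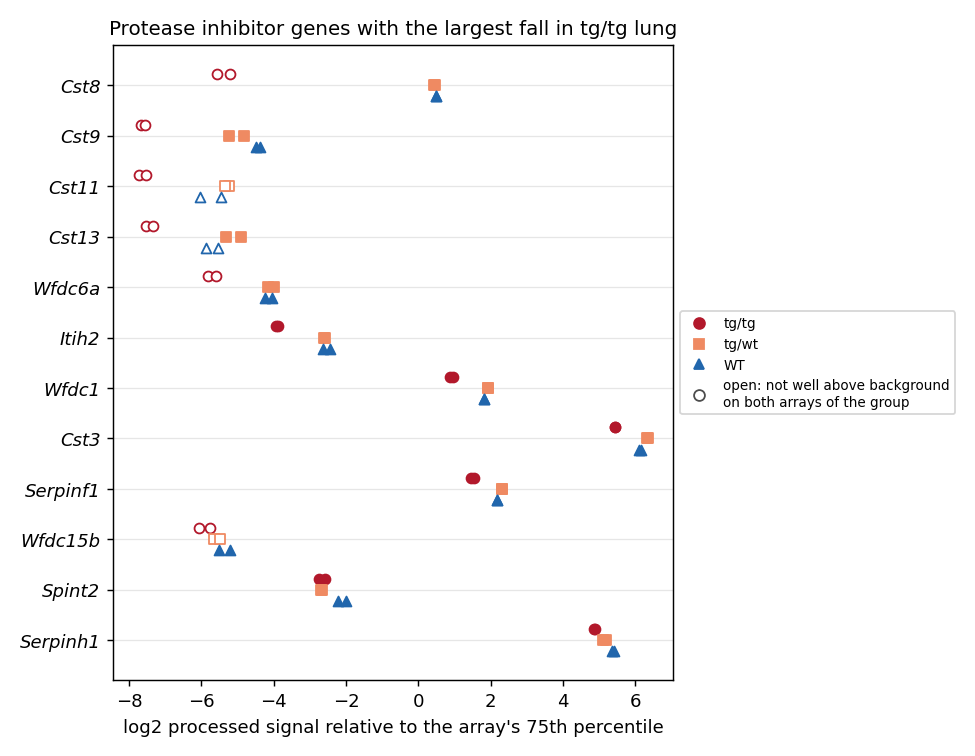
Levels of inhibitors that were lower in tg/tg lungs, each point an array on the same scale, with tg/tg above tg/wt above WT in each gene's row and open points as in the plot of rises. For Cst8 the tg/tg arrays sit at -5.57 and -5.22 and the other arrays between 0.44 and 0.48.

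Markers of other cells were measured on the same arrays, in lists that were not tested as sets. Beside the counts below, 33.5% of all tested genes were higher and 41.2% lower in tg/tg than in WT lungs. A summed linear level weighs bright probes most. The neutrophil list, 9 of 11 genes tested, was higher in tg/tg than in WT lungs for all 9, with a median log2 difference of 0.65. Its summed linear level was 64.8 and 62.9 in tg/tg lungs, 15.3 and 14.9 in tg/wt lungs and 53.2 and 52.4 in WT lungs. Elane and Ly6g of that list were not among the tested genes. A listed gene that was not tested either had no named probe or was too dim, and the 2 cases were not told apart. The macrophage and monocyte list, 6 of 9 tested, rose for all 6, at 164 and 171 in tg/tg lungs, 21.4 and 21.1 in tg/wt lungs and 13.2 and 12.8 in WT lungs, and the T cell list rose for all 7, at 40.2 and 41.0 in tg/tg lungs, 7.60 and 7.62 in tg/wt lungs and 3.50 and 3.33 in WT lungs. Alveolar macrophage markers were lower for 6 of 7 and higher for 1, with a median log2 difference of -2.38 between tg/tg and WT lungs. Their summed linear level moved less, at 81.5 and 80.7 in tg/tg lungs, 90.4 and 93.6 in tg/wt lungs and 97.8 and 97.3 in WT lungs. Fat markers, 6 of 7 tested, were lower for all 6, at 3.53 and 3.54 in tg/tg lungs, 21.7 and 22.1 in tg/wt lungs and 33.3 and 32.4 in WT lungs. Mesothelial markers were lower for 5 of 6 and higher for 1, fibroblast markers lower for 4 of 6 and higher for 2, and lung epithelial markers lower for 3 of 6 and higher for 1. The summed linear level of the fibroblast list went the other way, at 144 and 140 in tg/tg lungs, 143 and 147 in tg/wt lungs and 124 and 127 in WT lungs. Endothelial markers were lower for all 7, and heart muscle markers for all 7, at 10.6 and 11.1 in tg/tg lungs, 90.4 and 90.6 in tg/wt lungs and 187 and 187 in WT lungs. Of the liver list, 2 of 6 genes were tested, and both were lower in tg/tg lungs, where Alb was not well above background. The part of these cell types in the inhibitor results was not tested.

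In tg/wt against WT lungs the differences were smaller, and the largest of the called ones was 2.48-fold. Of the 51 inhibitors 10 were higher, beside 14.9% of all tested genes, and 15 were lower, beside 12.9%, so that 49.0% were called in either direction against 27.8% of all tested genes. The median difference was -0.0294 over the 51 and 0.0123 over all tested genes. This comparison and that of tg/tg with WT lungs share the WT arrays. Of the 25 calls, 9 held in all 17 distinct alternative fits: Cst7, Serpina3f, Wfdc12, Serpinb10 and Itih4 higher, and Serpina9, Serpina3m, Serpina3n and Serpind1 lower. Without WT replicate 1, WT replicate 2, tg/wt replicate 1 or tg/wt replicate 2 the counts fell to 7, 5, 6 and 6 higher and to 5, 7, 7 and 6 lower.

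Among those 9, Cst7 rose by 1.31 (2.48-fold, limma adjusted p = 5.87e-04) and Serpina3f by 0.79 (1.73-fold, limma adjusted p = 5.45e-04) in tg/wt lungs. Wfdc12 had -2.59 and -2.63 in tg/tg lungs, -2.22 and -2.26 in tg/wt lungs and -3.16 and -3.00 in WT lungs, and was 1.80-fold above WT in tg/wt lungs (limma adjusted p = 0.0019). Serpinb10, with -2.57 and -2.40 in tg/tg lungs, -2.22 and -2.25 in tg/wt lungs and -2.85 and -2.94 in WT lungs, was 1.58-fold above WT in tg/wt lungs (limma adjusted p = 0.00518). Itih4 was 1.5-fold above WT in tg/wt lungs (limma adjusted p = 0.00154).

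Serpina9 was lower in tg/wt lungs, with -0.78 and -0.77 in tg/tg lungs, -1.80 and -1.82 in tg/wt lungs and -0.90 and -0.86 in WT lungs, 1.90-fold below WT (limma adjusted p = 4.04e-04). The list of lymph node and B cell markers was higher in tg/wt than in WT lungs for 5 of 5 genes, beside 14.9% of all tested genes. Ms4a1 was among them, at 0.95 on the log2 scale. In tg/tg against WT lungs 1 gene of this list was higher and 3 were lower. The part of the list in the Serpina9 result was not tested. Serpind1 was 1.39-fold (limma adjusted p = 0.00539), Serpina3m 1.28-fold (limma adjusted p = 0.00687) and Serpina3n 1.25-fold below WT in tg/wt lungs (limma adjusted p = 0.00518). These 3 genes were higher in tg/tg than in WT lungs, a comparison with the same WT arrays. All 9 tested neutrophil markers were lower in tg/wt than in WT lungs as well, beside 12.9% of all tested genes. The part of the neutrophil list in these falls was not tested.

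The remaining calls of tg/wt against WT ended in at least 1 alternative. Those of Serpinf1 and Cst9 ended in 11 and 9 of 17 distinct alternative fits, and those of the other called genes given here in 3 to 6. Slpi was 1.17-fold lower in tg/wt lungs (limma adjusted p = 0.0224), Serpinb1a 1.20-fold higher (limma adjusted p = 0.0135), Cst3 1.14-fold higher (limma adjusted p = 0.024) and Spint2 1.47-fold lower (limma adjusted p = 0.0178). Serpini1 was 1.40-fold (limma adjusted p = 0.0206), Serpine2 1.20-fold (limma adjusted p = 0.0178) and Serpinf1 1.10-fold higher (limma adjusted p = 0.0492). Cst9 was 1.5-fold (limma adjusted p = 0.0394), Serpinb2 1.32-fold (limma adjusted p = 0.0182) and Serpinb6c 1.32-fold lower (limma adjusted p = 0.0256). Serpinh1 was 1.18-fold (limma adjusted p = 0.018) and Wfdc2 1.19-fold lower (limma adjusted p = 0.0113). A2m (log2 difference 0.13, limma adjusted p = 0.668), Cstb (-0.058, limma adjusted p = 0.452), Serpinb9 (0.060, limma adjusted p = 0.363), Serping1 (0.14, limma adjusted p = 0.12) and Cst8 (-0.032, limma adjusted p = 0.851) were not called. With every probe tested on its own, the other probe of Serpinb9 was called higher (0.26, limma adjusted p = 0.0463). The other probe of Serpinf1 was 1.26-fold higher (limma adjusted p = 0.0214), and that of Serpinb2 gave -0.19 with no call (limma adjusted p = 0.552).

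Between tg/tg and tg/wt lungs 23 of the 51 inhibitors were higher, beside 32.5% of all tested genes, and 18 were lower, beside 41.9%. In either direction 41 were called, or 80.4%, beside 74.4% of all tested genes. The largest rises were in A2m, at least 8.03-fold (limma adjusted p = 3.23e-05; 3.34-fold with normexp), and Serpina3f, 21.1-fold (limma adjusted p = 1.21e-06). Wfdc18 was 6.31-fold (limma adjusted p = 6.16e-05), Cst7 6.05-fold (limma adjusted p = 5.06e-06), Slpi 5.28-fold (limma adjusted p = 2.83e-06) and Serpinb12 at least 3.06-fold higher (limma adjusted p = 2.34e-04). Serpina9 was 2.05-fold above tg/wt in tg/tg lungs (limma adjusted p = 1.4e-05). The lower genes were led by Cst8, 57.4-fold below tg/wt in tg/tg lungs (log2 difference -5.84, limma adjusted p = 3.56e-06). Wfdc6a was at least 2.55-fold, Itih2 2.52-fold, Cst9 at least 1.31-fold, Cst13 at least 1.24-fold and Cst11 at least 1.10-fold lower, with limma adjusted p between 5.13e-05 and 3.70e-04. With the floor the calls of Cst9 (adjusted p = 0.053), Cst13 (adjusted p = 0.131) and Cst11 (adjusted p = 0.210) ended, and with normexp that of Cst13 (adjusted p = 0.103). A2m and Serpinb12 entered the test through tg/tg lungs alone and Cst13 through tg/wt lungs alone, so their p-values add no support of their own. Wfdc12 and Serpinb10 were lower in tg/tg than in tg/wt lungs by 0.37 and 0.25 on the log2 scale (limma adjusted p = 0.00443 and 0.0277), and the call of Serpinb10 ended in 6 of 17 distinct alternative fits, with adjusted p up to 0.107.

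The other 27 of the 78 genes were too dim to test. For 21 of them no array was well above background, 4 (Serpina10, Serpina1e, Serpinb5 and Wfdc15a) were so on 1 tg/tg array, and Serpinb9e and Serpini2 on 1 tg/wt array. They include the Serpinb3 genes and most of the Serpinb9 copies, which are clade B serpins in clusters on chromosomes 1 and 13. Their dimness sets no direction between the genotypes.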

How the data were processed

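Lung total RNA of 3 genotypes, 2 arrays each, was hybridised to a single-colour 44K Agilent array. Per the file headers, Agilent Feature Extraction 9.5.3.1 made the deposited intensity values, whereas the submitters' processing notes name version 9.1; the processed signal used here is background-subtracted and not scaled between arrays. The authors' series table repeats the background-subtracted intensity column of those files (relative tolerance 1e-04) and served as an alternative. Its medians were 74.4 and 92.2 in tg/tg, 115 and 87.0 in tg/wt and 88.2 and 86.8 in WT, on a linear scale, uncentred.

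Levels are log2 intensity minus each array's 75th percentile over non-control spots (861 to 1282 intensity units). The number of arrays, 2 per genotype, limits the precision. Probes were named through RefSeq accessions (22951 of 41174 matched; 18223 were not named), kept where 2 or more of the 6 arrays were well above background, and the brightest probe stood for a gene, which gave 12968 genes. On each array 62.0 to 66.8% of probes were well above background. Outlier spots (138 to 187 an array) were left out and saturated spots (3) kept. A limma 3.58.1 model of all 6 arrays (R 4.3.3) left 3 residual degrees of freedom, to which moderation added 1.78. Benjamini-Hochberg adjustment ran over every tested gene, with a threshold of 0.05. The method was tested on simulated data.

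Named were the 12 largest rises and 12 largest falls among called members in tg/tg against WT, the 6 and 6 largest in each other comparison, and a list of well known inhibitors. The members and lists were chosen with earlier results of these data known. Each alternative changed 1 choice: background correction, scaling, filter, floor, probe rule, variance moderation, arrays in the fit, slide, replicate number, source of values, and arrays left out. Since no mean foreground was used, normexp ran on the median signals. The alternative of RefSeq-named probes only equals the main setting and was not run. Of the tested inhibitors, 1 enters the counts and is not reported here by itself.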

Additional observations from a re-analysis of the deposited data

How the results depend on the processing

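Of the calls in tg/tg against WT, 34 of 44 held in every alternative run for them, as did 9 of 25 in tg/wt against WT and 32 of 41 in tg/tg against tg/wt. Each comparison had 17 distinct alternative fits, because fitting only its own arrays and leaving out an array of the third genotype, and for tg/tg against WT also the fit within slide 1, are 1 fit. Leaving out 1 array in turn gave 5 to 10 higher and 5 to 14 lower inhibitors in tg/wt against WT, beside 10 and 15, 22 to 25 higher and 16 to 18 lower in tg/tg against WT, and 23 to 24 higher and 12 to 17 lower in tg/tg against tg/wt. Over all genes, tg/wt against WT had 1931 higher and 1670 lower, 1245 and 1462 with normexp, 1317 and 1058 with no filter, and 794 to 992 higher and 557 to 788 lower with 1 of its own arrays left out. The sign turned for Cst11 (0.10) and Cst13 (0.21) with the floor and for Serpinc1 (0.039) with normexp in tg/tg against WT, and for A2m in tg/wt against WT (-0.065 with normexp, and 0.45 and -0.19 without tg/wt replicate 1 and 2) and Itih2 there (-0.14 and 0.035 without WT replicate 1 and 2). In tg/tg against tg/wt it turned for Serpinc1 (0.16 with normexp), Spint1 (-0.013 and 0.12 without tg/wt replicate 1 and 2), Spint2 (0.11 and -0.064 without tg/tg replicate 1 and 2) and Wfdc2 (-0.017 with normexp, -0.23 with quantile normalization, adjusted p = 0.0266); the cause was not tested. The floor replaces the values of Cst11 and Cst13, which lie below it. The replicate numbers do not pair the samples (correlations of deviations -0.046, -0.048 and 0.129), and with the replicate number as a block the counts were 24 higher and 18 lower, 9 and 12, and 23 and 17 in tg/tg against WT, tg/wt against WT and tg/tg against tg/wt. With the 75th percentile over probes, an alternative chosen after seeing the data, none of the named or called genes turned in sign. Dim probes limit 27 of the 78 genes, which were not tested.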
